A study of Mus musculus with 4 samples.

Results

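Hox genes were described in hair follicle stem cells sorted from mouse back skin. They were taken as every row of the gene count table whose symbol is Hoxa, Hoxb, Hoxc or Hoxd followed by a number, which gave 39 of 24084 gene rows and all 39 Hox genes of the GENCODE M21 annotation. The sequenced RNA came from C57BL/6 mice of 7 to 10 weeks, collected on day 4 after the hair of the back had been pulled out, which makes follicles enter growth again. The 2 Foxp3-DTR libraries (replicates C and D) came from mice whose Foxp3-expressing regulatory T cells carry the diphtheria toxin receptor, and per the labels these mice lacked those cells. The 2 WT libraries (replicates A and C) came from mice without the receptor, which kept them. Both genotypes had received the toxin by intraperitoneal injection at 15 ng/g. Nothing in the labels ties the replicates to different animals, so the p-values cover library-to-library spread that could be technical.

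Hox genes encode homeodomain transcription factors that give cells their position along the head-to-tail axis. In the mouse they lie in 4 clusters, HoxA to HoxD, and the genes are numbered so that low paralogue numbers sit at the end of the cluster used in the head and neck and high numbers at the end used in the lower trunk, tail and distal limb. Adult skin keeps a part of this pattern as a record of body site. Hoxc13 is the known exception in skin, because it is used in hair follicles of all body sites, where it activates hair keratin genes.

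The clusters also carry microRNA genes, and members of 2 microRNA families lie in different clusters, so their mature sequences are shown with the seed, bases 2 to 8, in capitals. MiR-196a-5p is made from Mir196a-1 (HoxB) and Mir196a-2 (HoxC), and miR-196b-5p from Mir196b (HoxA). MiR-10a-5p and miR-10b-5p come from Mir10a (HoxB) and Mir10b (HoxD). The sequences are RefSeq entries for GRCm38.p6, and the last line gives the DNA of a target site in the 3′ UTR of Hoxb8 at chr11:96284888-96284909 on the plus strand (GRCm38), with capitals for bases that match the full complement of miR-196a-5p.
miR-196a-5p: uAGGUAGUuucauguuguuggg
miR-196b-5p: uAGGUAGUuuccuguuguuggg
miR-10a-5p: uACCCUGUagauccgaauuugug
miR-10b-5p: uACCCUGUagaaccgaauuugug
Hoxb8 site: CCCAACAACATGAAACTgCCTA
The miR-196 sequences share 1 seed and the miR-10 sequences another. MiR-196 is known to cut Hoxb8 mRNA at this site. The site matches the full complement of miR-196a-5p at all but 1 of 22 bases, where a G faces a U. Among the longest coding transcripts of 21877 genes Hoxb8 was the 1 gene with a site of at most 2 mismatches to that complement.

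The second set of sequences stands at the edge of expression in HoxD, where Hoxd9 was counted in every library and its neighbour Hoxd10, which ends 2621 bases before the annotated start of Hoxd9, had 0 counts in all 4. Shown are the 250 bases before each RefSeq start on the plus strand of GRCm38.p6, chr2:74697513-74697762 for Hoxd9 and chr2:74691641-74691890 for Hoxd10, with CpG dinucleotides in capitals because Polycomb repressors of Hox genes gather at CpG-rich DNA.
Hoxd9: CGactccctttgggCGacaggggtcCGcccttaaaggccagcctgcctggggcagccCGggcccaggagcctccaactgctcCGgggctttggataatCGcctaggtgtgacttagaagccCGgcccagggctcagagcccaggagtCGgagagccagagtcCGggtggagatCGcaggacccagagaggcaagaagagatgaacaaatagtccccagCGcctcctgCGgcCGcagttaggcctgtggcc
Hoxd10: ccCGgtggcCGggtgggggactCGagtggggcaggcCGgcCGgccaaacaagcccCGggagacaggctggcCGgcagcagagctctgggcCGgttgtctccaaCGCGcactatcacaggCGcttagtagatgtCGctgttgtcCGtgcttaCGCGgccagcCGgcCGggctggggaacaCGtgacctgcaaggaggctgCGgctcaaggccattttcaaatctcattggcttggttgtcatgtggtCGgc
The Hoxd9 stretch held 13 CpGs and the Hoxd10 stretch 20, at a GC content of 65.2% and 65.6%. RefSeq promoters were matched for 22 of the 39 Hox genes, some with several starts. The 13 promoters of Hox genes that passed the expression filter held a median of 12 CpGs (3 to 28), and the 11 promoters of the others a median of 20 (2 to 35), against a median of 6 over all 32851 promoters of the same length. These are descriptions of the DNA, and no methylation or chromatin was measured.

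The libraries held 15493876 and 14351776 gene counts in Foxp3-DTR and 13911765 and 15923154 in WT. All 15 hair follicle stem cell markers passed the filter and none was called, against 1.25% of all tested genes, though 4 had an unadjusted p under 0.05. Hoxc8 is 1 of the 15, so the list is not independent of the Hox genes. Lhx2 had the smallest p, with 425 and 439 CPM in Foxp3-DTR and 789 and 804 CPM in WT (log2 fold change -0.88, SE 0.18, edgeR adjusted p = 0.0778). The other markers under 0.05, Postn, Itga6 and Cd34, were higher in Foxp3-DTR instead (log2 fold change 1.54, 0.70 and 0.63). The stem cell list summed to 57005 and 59211 CPM in Foxp3-DTR and 43915 and 52427 CPM in WT. The higher sums in Foxp3-DTR rested on Postn, at 21280 and 20188 CPM in Foxp3-DTR and 4653 and 9569 CPM in WT. Of the 15 markers, 7 had a negative log2 fold change. Of 17 fibroblast and dermal papilla genes 10 had any count and 7 had none, among them Lum, Pdgfrb and Twist2, and Col3a1 had at most 1 count in a library. Col1a1 had 3.05 and 5.74 CPM in Foxp3-DTR and 15.1 and 16.4 CPM in WT (edgeR adjusted p = 0.0982), and Col1a2 and Vim were between 7.32 and 35.1 CPM in all 4 libraries. Genes of the other skin cells moved between libraries: the 9 interfollicular and suprabasal genes in the table summed to 1602 and 7811 CPM (read counts scaled to the same total in each library) in Foxp3-DTR and 10039 and 2164 CPM in WT, and the 8 sebaceous and infundibulum genes to 1351 and 1477 CPM in Foxp3-DTR and 6376 and 2524 CPM in WT. The melanocyte and Schwann cell list summed to 126.5 and 147 CPM in Foxp3-DTR and 99.8 and 147.1 CPM in WT. For T cell and macrophage genes the sums were 25.7 and 7.79 CPM in Foxp3-DTR and 30.2 and 3.63 CPM in WT. Endothelium and muscle genes summed to 2.12 and 1.49 CPM in Foxp3-DTR and 4.51 and 1.48 CPM in WT. The fibroblast list summed to 131 and 213 CPM in Foxp3-DTR and 1056 and 768 CPM in WT. Most of this was Bgn, a matrix proteoglycan, called lower in Foxp3-DTR (log2 fold change -2.82, SE 0.38, edgeR adjusted p = 0.0412), as was Calml3 of the suprabasal list (-1.57, SE 0.25, edgeR adjusted p = 0.0486). Xist, named after its values were seen, stood at 1.86 and 0 CPM in Foxp3-DTR and 861 and 2482 CPM in WT, and 4 Y-linked genes summed to 319 and 260 CPM in Foxp3-DTR and 0 in both WT libraries. Genotype and sex therefore cannot be told apart here, nor can genotype and the code DEP3 or DEP2 in the library titles. The part of cell mixture in any Hox result was not tested, and in bulk RNA fewer cells of a type and less RNA per cell cannot be told apart.

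Hox expression in these back-skin cells ran up to paralogue 9 and then stopped, with Hoxc13 as the 1 clear exception. Of the 27 Hox genes numbered 1 to 9, 25 had counts and 23 reached at least 1 CPM in every library. The 2 at 0 counts were Hoxb1 and Hoxd1, genes of the hindbrain and the front end of the axis. Of the 12 genes numbered 10 to 13, which pattern the loins, sacrum, tail, genitalia and digits, 10 had 0 counts in all 4 libraries: Hoxa10, Hoxa11, Hoxa13, Hoxb13, Hoxc10, Hoxc11, Hoxd10, Hoxd11, Hoxd12 and Hoxd13. A count of 0 allows up to 3 counts, or 0.199 and 0.213 CPM in Foxp3-DTR and 0.211 and 0.185 CPM in WT, a limit of counting error only. Hoxc12, which is known from hair follicles beside Hoxc13, had 2 and 0 counts in Foxp3-DTR and 0 and 3 in WT, and it failed the filter. The members detected were nearly the same in both genotypes, with 27 and 26 Hox genes with any count in Foxp3-DTR and 26 and 27 in WT. Hoxc9 and Hoxd3 reached 1 CPM in both Foxp3-DTR libraries and in WT C and were below it in WT A.

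**Figure D1:**
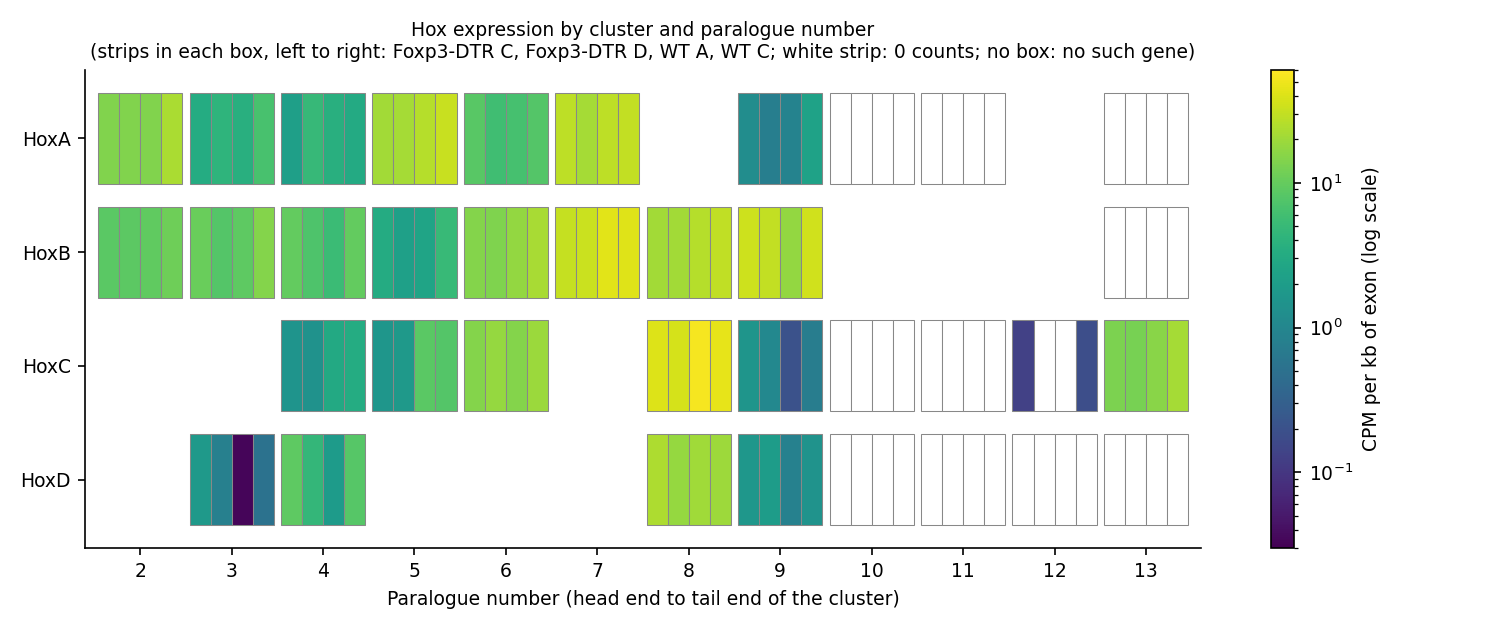
Level of each Hox gene (colour, CPM per kb of exon, log scale) by cluster (rows) and paralogue number (columns), with 1 strip per library in each box. The columns run from 2 to 13; filled strips end at 9 apart from group 12 and 13 of HoxC, columns 10 and 11 are white throughout, and Hoxc13 is filled in all 4 libraries.

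To compare genes with each other, CPM was divided by the length of the merged GENCODE M21 exons. Summed in this unit over the clusters, group 8 (Hoxb8, Hoxc8 and Hoxd8, factors of the thoracic region) was the highest paralogue group in every library. It summed to 84.2 and 75.4 CPM per kb in Foxp3-DTR and 99.6 and 94.1 CPM per kb in WT. Group 7 (Hoxa7 and Hoxb7) followed with 58.2 and 54.3 CPM per kb in Foxp3-DTR and 70.9 and 72.1 CPM per kb in WT. Group 9 had 38.0 and 33.7 CPM per kb in Foxp3-DTR and 19.2 and 39.3 CPM per kb in WT, so its lowest and highest values were both in WT. Groups 10 and 11 were at 0 in all 4 libraries, and group 13, which was Hoxc13 alone, had 13.2 and 12.6 CPM per kb in Foxp3-DTR and 15.5 and 21.4 CPM per kb in WT.

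**Figure D2:**
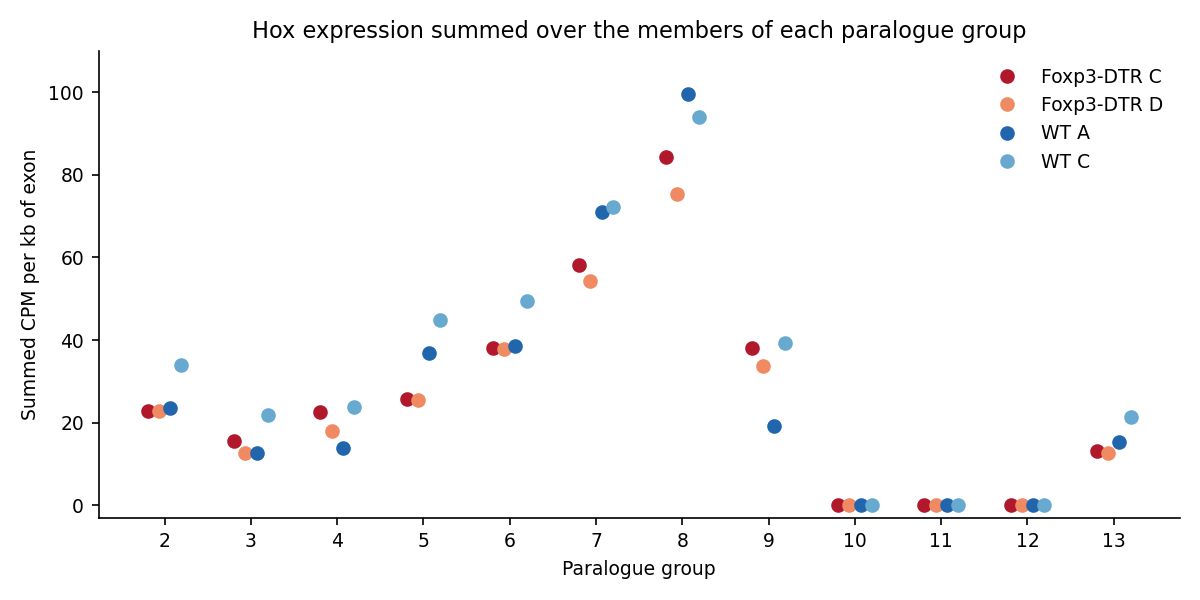
Summed level of the Hox genes of each paralogue group (y axis, CPM per kb of exon) against the group's number from 2 to 13 (x axis), 1 point per library. The sums are highest in group 8 in every library, between 75.4 and 99.6 CPM per kb, are 0 in groups 10 and 11, and stand at 12.6 to 21.4 CPM per kb in group 13.

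HoxB was the cluster in which the level followed the paralogue number most closely. Over its 9 genes numbered 1 to 9, Spearman's rho of paralogue number with CPM per kb was 0.87 and 0.78 in Foxp3-DTR and 0.72 and 0.80 in WT. These genes share libraries and lie side by side, so the coefficients are descriptions. Hoxb2 and Hoxb3, factors of the hindbrain, had mean levels over the 4 libraries of 9.54 and 10.6 CPM per kb, and Hoxb4 and Hoxb5, neck and upper trunk genes, 7.97 and 3.23 CPM per kb. The trunk genes Hoxb6, Hoxb7, Hoxb8 and Hoxb9 stood higher, at 17.2, 36.9, 24.0 and 28.9 CPM per kb. Hoxb13 was at 0, and with it included rho was 0.41 and 0.35 in Foxp3-DTR and 0.30 and 0.36 in WT. HoxB held 41.2% and 41.7% of the summed Hox level in Foxp3-DTR and 39.2% and 41.8% in WT.

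HoxA alternated instead of climbing. Hoxa5, a gene of lung and thoracic patterning, and Hoxa7, of the thorax, stood at 25.1 and 27.0 CPM per kb on average, with Hoxa6 between them on the chromosome at 7.12 CPM per kb. Hoxa2, a hindbrain and second pharyngeal arch gene, had 16.3 CPM per kb, above its neighbour Hoxa3 at 4.35 CPM per kb. That gap depends on the length used, because Hoxa3 has 6014 merged exon bases but a longest transcript of 2591. Without length scaling the means were close, at 25.0 CPM in Foxp3-DTR and 32.9 CPM in WT for Hoxa2. For Hoxa3 they were 22.1 CPM in Foxp3-DTR and 30.3 CPM in WT. Hoxa4 had 3.43 CPM per kb. Hoxa9 was the last HoxA gene with counts and had 1.32 CPM per kb. Over the 8 HoxA genes up to paralogue 9, rho was 0.12 and 0.14 in Foxp3-DTR and 0.31 and 0.24 in WT, and over all 11 it was negative, at -0.56 and -0.55 in Foxp3-DTR and -0.49 and -0.51 in WT.

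HoxC held the highest single gene. Hoxc8, the gene given as the marker of back position, stood at 39.8 and 36.6 CPM per kb in Foxp3-DTR and 53.4 and 45.6 CPM per kb in WT. It was first of the 39 in every library and above 94.2% to 96.4% of the 22817 genes with a known length, depending on the library. Hoxc6, a thoracic gene, averaged 16.6 CPM per kb and Hoxc9, the next gene after Hoxc8, 0.892 CPM per kb. Hoxc10 and Hoxc11 were at 0, Hoxc12 near it at 0.0769, and Hoxc13, at the end of the cluster, averaged 15.7 CPM per kb. In HoxD, Hoxd8 averaged 20.5 CPM per kb, Hoxd9 1.48 and Hoxd4 5.91, while Hoxd3 averaged 0.786 CPM per kb. Hoxd3 and Hoxd4 share 62.3% and 52.3% of their exon bases with another gene of the same strand, so the split of reads between them is uncertain. Up to paralogue 9, rho was 0.4 and 0 in Foxp3-DTR and 0 and 0 in WT over 5 HoxC genes, and 0.4 and 0.7 in Foxp3-DTR and 0.7 and 0.7 in WT over 5 HoxD genes.

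In the order of mean levels, neighbours mostly did not differ beyond their spread over libraries. Hoxc8 ranged from 36.6 to 53.4 CPM per kb and Hoxb7, the next, from 30.3 to 42.8, so the ranges overlapped, though Hoxc8 was above Hoxb7 within each library. Hoxb9 followed with 17.3 to 34.7 CPM per kb, the widest of the leading genes, and overlapped Hoxa7 at 21.9 to 30.2, Hoxa5 at 21.02 to 32.0 and Hoxb8 at 20.7 to 28.8 CPM per kb. Against these leading genes, Hoxc9, Hoxa9 and Hoxd9 were at most 2.39 CPM per kb in every library, and their ranges did not meet those of the leading genes. Merged exons of several transcript models can overstate a gene's length, which lowers its level in this unit.

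Foxp3-DTR was then compared with WT for the 26 Hox genes that passed the filter, to see how the positional code stood in stem cells without regulatory T cells. Hoxc5 was lower in Foxp3-DTR and was the 1 Hox gene called, with none called higher, against 0.426% of all 12920 tested genes called lower and 0.82% called higher. Hoxc5, a cervical and upper thoracic factor, had 75 and 77 counts in Foxp3-DTR and 371 and 400 counts in WT. In CPM it stood at 4.97 and 5.46 in Foxp3-DTR and 26.1 and 24.6 in WT. Both Foxp3-DTR libraries lay far below both WT libraries, and the libraries within each genotype were close. The means were 5.21 ± 0.341 CPM in Foxp3-DTR and 25.4 ± 1.07 CPM in WT (SD, n = 2 each), 4.86-fold higher in WT. The log2 fold change was -2.28 (SE 0.29, edgeR adjusted p = 0.0299 by the Benjamini-Hochberg method). That call was lost with limma-voom (adjusted p = 0.0503) and when Foxp3-DTR C (edgeR adjusted p = 0.0888) or WT A (0.0521) was left out, while the log2 fold change stayed between -2.34 and -2.21 in all 8 alternatives.

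The neighbours of Hoxc5 on chromosome 15 did not all share its difference. Hoxc4, the gene beside it on the head side, had 3.91 and 3.61 CPM in Foxp3-DTR and 7.67 and 8.37 CPM in WT. Both Foxp3-DTR libraries were below both WT libraries, and the log2 fold change of -1.09 (SE 0.45) did not pass (edgeR adjusted p = 0.333). Hoxc6, on the other side, had 35.7 and 43.2 CPM in Foxp3-DTR and 35.3 and 46.0 CPM in WT. The genotypes overlapped, with a log2 fold change of -0.04 (SE 0.24, edgeR adjusted p = 0.963). Within a library, the level of Hoxc5 per kb was 0.108 and 0.0986 of that of Hoxc6 in Foxp3-DTR, and 0.577 and 0.417 of it in WT. The ratio of Hoxc4 to Hoxc6 was 0.103 and 0.0785 in Foxp3-DTR, and 0.204 and 0.17 in WT. In GENCODE M21 the Hoxc5 model spans chr15:102967443-103017429, over Hoxc6, Hoxc8 and Hoxc9, and shares 5.37% of its exon bases with Hoxc10. In RefSeq it spans chr15:103014008-103017429, and which model the authors counted is not given in the sources used here.

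**Figure D3:**
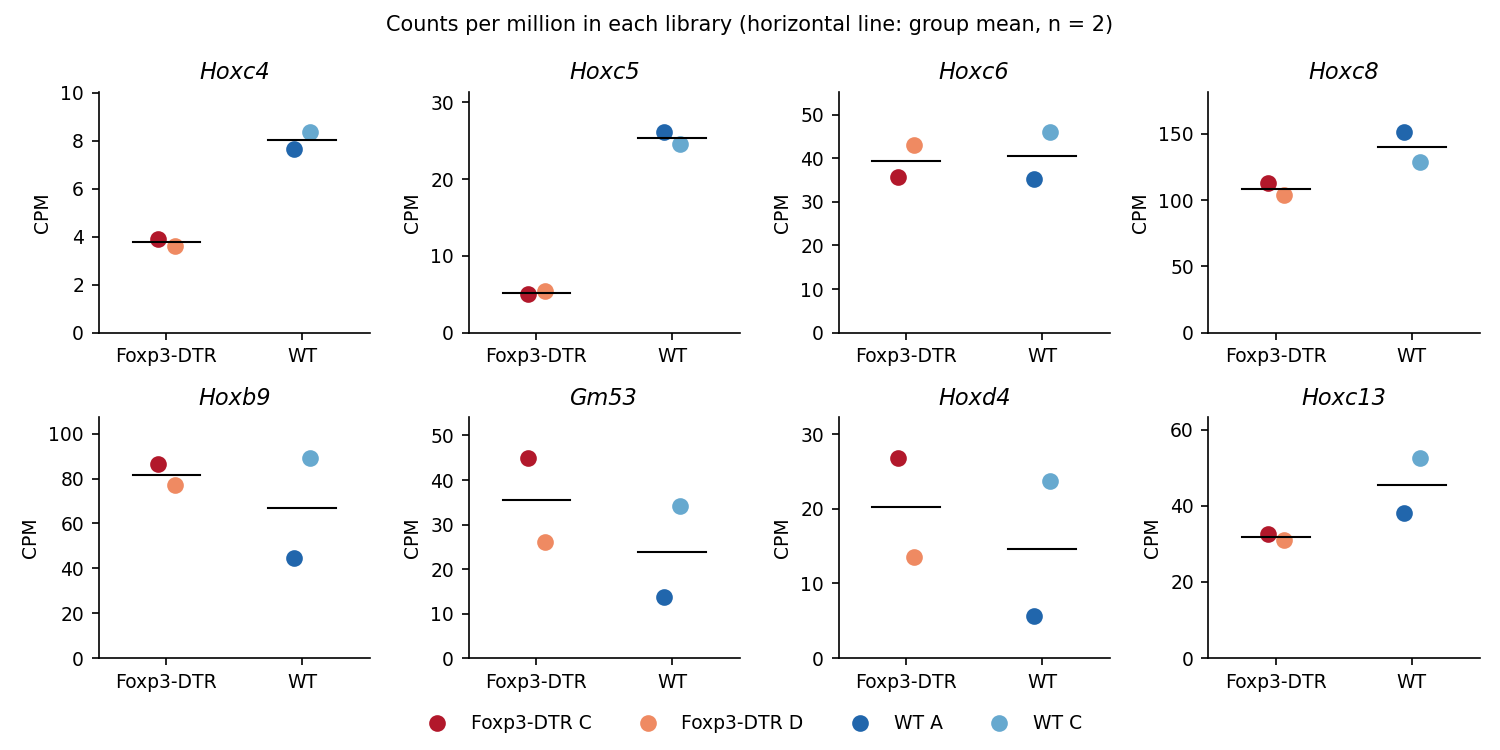
CPM in each library (points) with the genotype mean (line, n = 2) for 7 Hox genes and Gm53, Foxp3-DTR on the left of each panel, each y axis starting at 0. Hoxc5, Hoxc4, Hoxc8 and Hoxc13 are separated by genotype, Hoxc6 is not, and Hoxb9, Gm53 and Hoxd4 have their lowest point in WT A.

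Hoxc8 itself had 113 and 104 CPM in Foxp3-DTR and 151 and 129 CPM in WT. Both Foxp3-DTR libraries were below both WT libraries, with a log2 fold change of -0.37 (SE 0.18) that did not pass (edgeR adjusted p = 0.429). Hoxc13, which drives hair shaft keratins, had 32.6 and 31.0 CPM in Foxp3-DTR and 38.0 and 52.7 CPM in WT. The genotypes did not overlap, and its log2 fold change was -0.51 (SE 0.24, edgeR adjusted p = 0.41).

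Across the 26 tested genes, 16 log2 fold changes were negative and 10 positive. Their median was -0.30 against -0.01 over all tested genes, and 61.5% were negative against 51.4%. The median was 0.03 without WT C, with 12 negative and 14 positive values, so the lean was not there without that library. It was -0.30 without WT A, -0.33 without Foxp3-DTR C and -0.24 without Foxp3-DTR D. The genotypes did not overlap in 14 Hox genes and overlapped in 12, where 45.7% of all tested genes did not overlap. In 11 of the 26 both Foxp3-DTR libraries were below both WT libraries, against 23.7% of all tested genes. In 3 of the 26, Hoxc9, Hoxd3 and Hoxd9, they were above, against 22%. At an unadjusted edgeR p under 0.05 there were 2 Hox genes, Hoxc5 and Hoxc4, against 14.6% of all tested genes. With 2 libraries against 2, an exact permutation test of a single gene cannot go below 0.333 (two-sided).

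**Figure D4:**
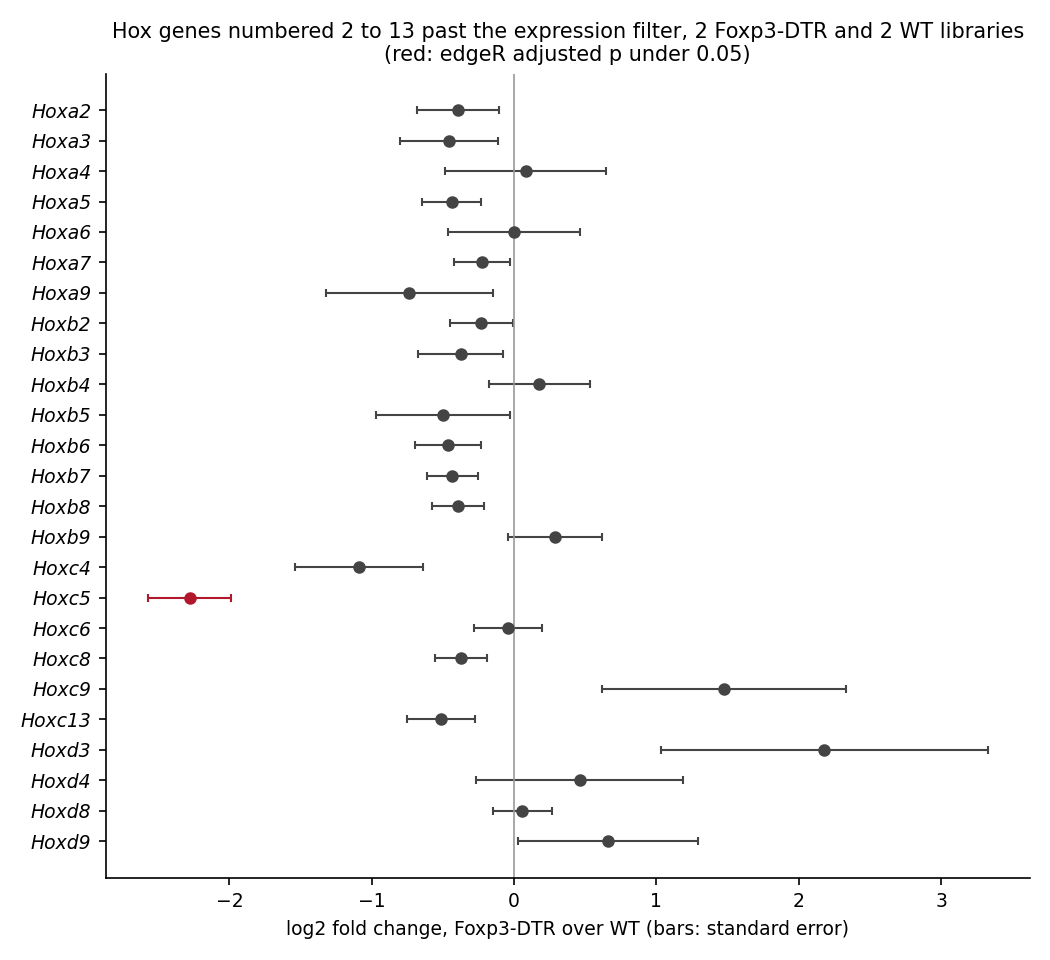
Log2 fold change of Foxp3-DTR over WT with its standard error for the tested Hox genes numbered 2 to 13, ordered by cluster and paralogue number, HoxA at the top. Hoxc5, in red, is the 1 gene past the edgeR threshold, and the others lie between -1.09 and 2.18.

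In HoxB, Hoxb7 and Hoxb8 were below WT in both Foxp3-DTR libraries, with close replicates. Hoxb7, a trunk gene, had 46.8 and 50.2 CPM in Foxp3-DTR and 66.1 and 64.8 CPM in WT, a log2 fold change of -0.43 (SE 0.18, edgeR adjusted p = 0.344). Hoxb8, whose loss in mice causes excessive grooming and hair loss, had 54.8 and 54.6 CPM in Foxp3-DTR and 67.9 and 76.0 CPM in WT, a log2 fold change of -0.40 (SE 0.18, edgeR adjusted p = 0.394). Hoxb6 had 29.2 and 27.5 CPM in Foxp3-DTR and 34.5 and 43.9 CPM in WT, again without overlap, and did not pass (edgeR adjusted p = 0.438). Hoxb2 had 30.4 and 30.9 CPM in Foxp3-DTR and 32.8 and 39.0 CPM in WT. Its genotypes did not overlap either, by a small margin. Hoxb3 had 44.9 and 33.2 CPM in Foxp3-DTR and 38.4 and 62.9 CPM in WT, and Hoxb5 had 8.82 and 6.09 CPM in Foxp3-DTR and 7.11 and 13.96 CPM in WT. Hoxb4, known from blood stem cells, had 25.0 and 18.4 CPM in Foxp3-DTR and 13.9 and 24.5 CPM in WT. In these last 3 genes the genotypes overlapped. Of the 8 HoxB genes tested, 6 had a negative log2 fold change, and their median was -0.39.

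In HoxA the median over 8 tested genes was -0.31, with 5 negative, and none passed. Hoxa5 had 39.5 and 40.7 CPM in Foxp3-DTR and 48.4 and 60.03 CPM in WT, without overlap (edgeR adjusted p = 0.415). Hoxa7 had 80.2 and 62.9 CPM in Foxp3-DTR and 80.8 and 86.7 CPM in WT, without overlap but with a difference of means smaller than the gap between the Foxp3-DTR libraries. Hoxa2 had 25.0 and 25.0 CPM in Foxp3-DTR and 25.2 and 40.5 CPM in WT, so WT A was barely above Foxp3-DTR and WT C alone stood apart. Hoxa3 had 19.1 and 25.0 CPM in Foxp3-DTR and 21.6 and 39.0 CPM in WT, and Hoxa9 had 6.76 and 4.25 CPM in Foxp3-DTR and 4.998 and 13.4 CPM in WT, and in both of these WT C was again the highest library. Hoxa4 had 3.38 and 7.87 CPM in Foxp3-DTR and 5.77 and 4.86 CPM in WT, and Hoxa6 had 7.36 and 5.10 CPM in Foxp3-DTR and 5.49 and 6.95 CPM in WT. The genotypes overlapped in both of these.

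HoxD was the cluster with no negative log2 fold change, with a median of 0.56 over 4 tested genes, none of which passed. Hoxd3, a gene of the upper neck, had 7.49 and 3.33 CPM in Foxp3-DTR and 0.141 and 2.21 CPM in WT. The genotypes did not overlap, but the 2 WT libraries lay far apart and the log2 fold change of 2.18 had an SE of 1.15 (edgeR adjusted p = 0.472). It was 1.30 without WT A, 5.18 without WT C and 1.49 without Foxp3-DTR C, and passed in none of these. Hoxd4 had 26.9 and 13.5 CPM in Foxp3-DTR and 5.63 and 23.7 CPM in WT, with overlap. Hoxd8 was the steadiest, at 64.7 and 49.9 CPM in Foxp3-DTR and 56.0 and 54.1 CPM in WT (log2 fold change 0.06, SE 0.21, edgeR adjusted p = 0.942). Hoxd9 had 3.58 and 4.18 CPM in Foxp3-DTR and 1.76 and 3.14 CPM in WT, without overlap (edgeR adjusted p = 0.724). The share of HoxD in the summed level per kb was 11.3% and 8.6% in Foxp3-DTR and 7% and 7.4% in WT.

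WT A held the lowest value of several Hox genes. Hoxb9 had 86.4 and 77.0 CPM in Foxp3-DTR and 44.6 and 89.3 CPM in WT, so WT A stood alone below the other 3 libraries. Hoxc9 had 3.85 and 2.55 CPM in Foxp3-DTR and 0.493 and 1.78 CPM in WT, from 58 and 36 counts in Foxp3-DTR and 7 and 29 in WT (log2 fold change 1.48, SE 0.86, edgeR adjusted p = 0.521). Its log2 fold change was 0.85 without WT A and 2.68 without WT C. Hoxd9, Hoxd3 and Hoxd4 were likewise lowest in WT A, while Hoxc8 was highest there. In all, the lowest library was Foxp3-DTR D in 11 of the 26 tested Hox genes, Foxp3-DTR C in 7, WT A in 8 and WT C in 0, against 17.6%, 28.1%, 33% and 21.3% of all tested genes. The highest library was WT C in 14 of the 26, against 23% of all tested genes. WT C was at least 1.5 times WT A in 12 of the 26 Hox genes, against 15.6% of all tested genes, a difference between libraries of the same genotype. WT A also held the most interfollicular and sebaceous marker RNA, and the part of that in these values was not tested.

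Transcripts from the tail side of Hoxb9 were also lowest in WT A. Gm53, which in RefSeq lies at chr11:96251660-96264484 between Hoxb13 and Hoxb9, had 45.0 and 26.1 CPM in Foxp3-DTR and 13.7 and 34.2 CPM in WT. The row of Mir196a-1, also on that side of Hoxb9, had 11.5 and 7.16 CPM in Foxp3-DTR and 2.46 and 7.57 CPM in WT (log2 fold change 0.89, SE 0.62, edgeR adjusted p = 0.606). The genotypes overlapped in both. The RNA was selected by poly(A), so this row counts longer transcripts across the hairpin and not mature miR-196a. Mir196a-2, Mir196b and Mir10a had 0 counts and Mir10b at most 1. Of the 25 noncoding genes listed for the Hox clusters, 17 were in the table, 5 were tested and none passed. Mira, at chr6:52214491-52215288 inside the GENCODE model of Hoxa7, had 108 and 98.4 CPM in Foxp3-DTR and 108 and 125 CPM in WT. Hotair and Hottip, long RNAs of the tail end of HoxC and HoxA, had 0 counts in all libraries, like the Hoxc11, Hoxa11 and Hoxa13 genes around them.

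Genes around the Hox pathway were read in 9 lists of 173 genes, of which 101 were tested. None passed in edgeR, against 1.25% of all tested genes called in either direction. Of the 101, 18 had an unadjusted p under 0.05, where 14.6% of all tested genes did, and the median log2 fold change was 0.04. Limma-voom also called 0. DESeq2 called 6 of the 109 it tested (Barx2, Prdm1, Cyp26b1, Psip1, Lef1 and Krt71), where it called 7.4% of all genes. Among the cofactors that bind DNA with Hox proteins, Meis1 had 24.3 and 23.0 CPM in Foxp3-DTR and 32.8 and 37.0 CPM in WT (edgeR adjusted p = 0.319), and Pknox1 had the smallest p of its list (log2 fold change -0.80, SE 0.22, edgeR adjusted p = 0.149). For the repressors that keep Hox genes silent, Ezh2, the Polycomb methyltransferase, had 51.3 and 42.1 CPM in Foxp3-DTR and 77.0 and 62.4 CPM in WT (edgeR adjusted p = 0.272), and Cbx6 had the smallest p (log2 fold change -0.61, SE 0.17, edgeR adjusted p = 0.152). For the activators, Kmt2a, the methyltransferase that keeps Hox genes on, had 289 and 206 CPM in Foxp3-DTR and 118 and 225 CPM in WT, lowest in WT A. Psip1, which tethers the Kmt2a complex to chromatin, had a log2 fold change of -0.96 (SE 0.20, edgeR adjusted p = 0.0766), and passed without the filter (0.0348). Ctcf, which sets boundaries within Hox clusters, had the smallest p of the insulator list (log2 fold change -0.32, SE 0.17, edgeR adjusted p = 0.469).

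Retinoic acid switches on the head-end Hox genes in the embryo, and the gene with the smallest p among its 12 tested genes was Cyp26b1, an enzyme that breaks it down. It had 78.0 and 102 CPM in Foxp3-DTR and 7.04 and 20.5 CPM in WT. Both Foxp3-DTR libraries were well above WT, with a log2 fold change of 2.70 (SE 0.53) that did not pass (edgeR adjusted p = 0.0865). It passed without WT A (2.15, edgeR adjusted p = 0.0161) and without WT C (3.68, edgeR adjusted p = 0.00904). Of the 13 genes listed as Cdx and ParaHox relatives, 12 had 0 counts, Cdx1, Cdx2 and Cdx4 among them, and Meox1 was at most 1.17 CPM. Of 24 regional genes of limb, head and dorsal skin, 11 had counts and 13 had none. Among the 13 were En1 and the limb genes Tbx4, Tbx5 and Pitx1. Lmx1b, on the same list, had 2.12 and 3.47 CPM in Foxp3-DTR and 1.55 and 2.71 CPM in WT. Tbx15 had 0.663 and 0.638 CPM in Foxp3-DTR and 0 in both WT libraries. Dlx3, of skin appendages, had 10.4 and 17.4 CPM in Foxp3-DTR and 19.7 and 23.9 CPM in WT, and Msx2, of hair follicles and limbs, 13.7 and 13.6 CPM in Foxp3-DTR and 7.53 and 18.9 CPM in WT. Barx2, an epithelial homeobox gene, had 225 and 227 CPM in Foxp3-DTR and 552 and 437 CPM in WT (log2 fold change -1.13, SE 0.20, edgeR adjusted p = 0.0551), and passed without the filter (0.018) and without WT C (0.0278). Among hair keratin and shaft genes linked to Hoxc13, Krt71, an inner root sheath keratin, had the smallest p, with 26.9 and 28.0 CPM in Foxp3-DTR and 10.7 and 14.8 CPM in WT (edgeR adjusted p = 0.124). Of the 23 genes on that list 9 had 0 counts in all libraries, among them Krt34, Krt36, Krt81 and Krt86. Krt31, Krt33a and Krt35 had at most 7 counts in a library.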

How the data were processed

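Per the labels' protocols, the 4 libraries were prepared by a stranded, poly(A)-selecting method. The authors deposited raw read counts for each gene symbol. HTSeq 0.6.1, SAMtools 0.1.19.0, TopHat2 2.0.12, CASAVA 1.8.2 and Bowtie2 2.1.0.0 are named in the submitters' processing notes, as is build mm10. Which annotation and strand option were counted is not given in the sources used here, so reads of overlapping and antisense genes cannot be told apart. Exons of 9 Hox genes overlap another gene on the same strand and those of 10 a gene on the opposite strand. The 5 rows that name no gene held 63.9% and 67.8% of counts in Foxp3-DTR and 70.1% and 62.0% in WT and were left out.

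The whole table was fitted in R 4.3.3 with edgeR 4.0.16 (TMM, filterByExpr, robust glmQLFit, glmQLFTest), with genotype as the 1 term and Benjamini-Hochberg adjustment over 12920 genes at 0.05. The biological coefficient of variation was 0.31 in common. CPM uses the TMM-scaled totals. Exon lengths are from GENCODE M21 (GRCm38), matched by symbol for 94.7% of rows. The alternatives were DESeq2 1.42.0, its size factors in edgeR, limma-voom (limma 3.58.1), no filter, other length measures and leaving out each library. The scripts were tested on simulated counts with less spread between libraries than these data and with large planted changes. That test checks the code and gives no rate of missed or false calls for these data. The Hox genes, the lists and the tests were chosen with earlier results of these data known. The rule for other genes named up to 3 passing members of each list, or the member with the smallest p where none passed, and in every case Hoxc8, Hoxc13, Meis1, Ezh2 and Kmt2a. Cell type lists are given by their sums and the members that passed, and other genes named were chosen after their values were seen. Some genes that the rule takes are not reported here.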

Additional observations from a re-analysis of the deposited data

How the results depend on the processing

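No paired analysis was possible because the replicate letters of the 2 genotypes share only C. Hoxc5 was the 1 Hox gene called with edgeR, DESeq2, DESeq2 size factors and no filter, while limma-voom called 0 (Hoxc5 log2 fold change -2.28, adjusted p = 0.0503). Leaving out single libraries, with the lone library of a genotype assumed to vary like the other group, gave 0 to 1 Hox genes called: 0 without WT A (Hoxc5 -2.22, edgeR adjusted p = 0.0521) and 0 without Foxp3-DTR C (-2.21, 0.0888). In the pathway lists, 0 of 101 tested genes were called in the edgeR fit, 6 of 109 with DESeq2 and 2 of 119 with no filter. Over all genes, DESeq2 called 1003, edgeR 161 and limma-voom 93. Spearman's coefficient over only the members past the filter was 0.2 in HoxA, 0.7 in HoxB, 0.29 in HoxC and 0.25 in HoxD, against means over libraries of -0.53, 0.36, -0.31 and -0.47 with all members, since the filter takes out the silent genes, Hoxb1 and Hoxd1 as well as those of the tail end. For HoxC it was -0.38 with the longest transcript's length. The HoxA share was 23.9% with no length scaling and 25.5% with it. With limma-voom, Hoxa6 (-0.013) and Hoxa4 (-0.046) changed sign. Leaving out libraries turned the sign of uncalled log2 fold changes in Hoxa3 (-0.81 to 0.033), Hoxa4 (-0.64 to 0.57), Hoxa6 (-0.28 to 0.25), Hoxa9 (-1.26 to 0.14), Hoxb3 (-0.68 to 0.03), Hoxb4 (-0.16 to 0.65), Hoxb5 (-0.89 to 0.073), Hoxb9 (-0.12 to 0.88), Hoxc6 (-0.21 to 0.17), Hoxd4 (-0.22 to 1.84) and Hoxd8 (-0.14 to 0.24), and the cause was not tested. Hoxd3, with 2 counts in WT A, ranged from 1.30 to 5.18 when 1 library was left out, and Hoxc9, with 7, from 0.85 to 2.68. Counting error and spread between libraries were not separated for these weakly expressed genes.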
